A study of Homo sapiens with 30 samples.

Results

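Regulators of the definitive endoderm were examined as 7 loci: SOX17, EOMES, CXCR4, GSC, MIXL1, LHX1 and HHEX. A deposited region belonged to a locus when its nearest edge lay within 100 kb of the gene's start site on the hg19 build. This rule gave 114 of the 112903 deposited regions, of which 64 came from the 89929 listed as different between genotypes and 50 from the 22974 regions of wild-type clusters. Start sites were known to the nearest kb, so each distance below can be off by up to 0.5 kb, and a region near a start site was not shown to act on that gene.

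The data come from ATAC-seq, which reads open chromatin through transposase insertion, in HUES8, a line of human embryonic stem cells. Cells with a wild-type genotype served as control, the others carried an HNF6 knockout, HNF6 being the homeodomain factor also called ONECUT1, and both were differentiated in vitro towards pancreas. The series has 30 samples in 10 groups of 3. A control and a knockout group exist for each of 5 stages, which are called ESC (undifferentiated cells), DE (definitive endoderm), GT (primitive gut tube), PE (endoderm of pancreatic fate) and PP (progenitors of the pancreas). The labels give no number of knockout clones, no further allele or agent, nor whether the 3 samples in each group came from separate differentiations. Their spread may therefore be technical. Each listed region carries 3 control and 3 knockout values, whole numbers whose scaling is not stated, read as control or knockout from the list names and the sign of the authors' ratio. Sequencing depth is unknown, since the lists hold no library totals. The files hold no RNA values against which the stage labels could be checked.

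Definitive endoderm is the germ layer that forms the gut, liver and pancreas, and it arises from mesendoderm under Nodal signalling. EOMES, a T-box factor, and MIXL1, a paired-type homeodomain factor, act early in that step, and SOX17, an HMG-box factor, is required to establish endoderm. GSC and LHX1 are homeodomain factors of anterior mesendoderm and the organizer, and HHEX is a homeodomain factor of anterior endoderm that is needed for liver and ventral pancreas. CXCR4 is a chemokine receptor used as a surface marker to sort definitive endoderm cells.

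Listed regions covered the start sites, as rounded, of EOMES and CXCR4 and lay 0.501 kb from that of SOX17, 0.551 kb from that of GSC and 0.851 kb from that of HHEX. The RefSeq promoter windows of EOMES, CXCR4, GSC and HHEX are therefore shown, 5′ to 3′ on the gene's strand, from 250 bases before to 50 after the annotated start. No window was examined for SOX17 or LHX1. Windows were taken for the other 5 of the 7 members, and for CXCR4 the first of its 3 windows is given. Their positions are on GRCh38.p14 and cannot be set against the hg19 positions used elsewhere. Capitals mark TATAAA or its reverse complement TTTATA, which 11.5% of the 35116 windows of the same length hold on either strand.
EOMES (chr3:27722274-27722573, minus strand): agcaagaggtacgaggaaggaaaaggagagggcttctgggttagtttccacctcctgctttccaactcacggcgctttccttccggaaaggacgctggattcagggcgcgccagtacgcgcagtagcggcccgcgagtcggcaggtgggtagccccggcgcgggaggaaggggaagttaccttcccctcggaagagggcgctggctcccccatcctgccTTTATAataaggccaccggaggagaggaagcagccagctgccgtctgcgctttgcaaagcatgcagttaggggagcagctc
CXCR4 (chr2:136118100-136118399, minus strand): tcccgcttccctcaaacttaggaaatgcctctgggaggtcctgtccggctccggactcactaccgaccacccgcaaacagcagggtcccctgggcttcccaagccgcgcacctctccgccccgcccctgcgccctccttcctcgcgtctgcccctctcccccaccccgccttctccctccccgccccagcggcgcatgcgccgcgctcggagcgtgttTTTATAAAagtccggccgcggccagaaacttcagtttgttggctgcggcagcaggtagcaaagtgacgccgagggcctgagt
GSC (chr14:94770064-94770363, minus strand): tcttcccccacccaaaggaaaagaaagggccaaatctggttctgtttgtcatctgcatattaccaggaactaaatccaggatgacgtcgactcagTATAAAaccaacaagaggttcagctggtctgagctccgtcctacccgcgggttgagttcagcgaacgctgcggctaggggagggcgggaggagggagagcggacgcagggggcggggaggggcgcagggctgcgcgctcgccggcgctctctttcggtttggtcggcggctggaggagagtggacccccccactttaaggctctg
HHEX (chr10:92689705-92690004, plus strand): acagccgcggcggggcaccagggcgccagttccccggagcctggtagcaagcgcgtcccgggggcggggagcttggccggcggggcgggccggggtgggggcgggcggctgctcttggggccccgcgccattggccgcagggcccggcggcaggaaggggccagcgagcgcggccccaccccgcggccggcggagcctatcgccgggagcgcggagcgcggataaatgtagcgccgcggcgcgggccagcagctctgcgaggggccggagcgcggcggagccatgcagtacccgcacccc
In the CXCR4 window the 2 matches, 1 on each strand, overlap. EOMES and GSC had 1 match each, that of EOMES on the opposite strand. The matches began at -32 and -30 from the annotated start in CXCR4, at -31 in EOMES and at -155 in GSC. None of these 4 windows held the ONECUT motif ATCAAT, which 6.26% of all windows do. Nor did they hold TAATCC (bound by GSC and OTX2, in 6.36%), TAATTA (LIM and paired-type homeodomains, 4.84%), the T-box motif AGGTGTGA (0.98%), the forkhead motif TGTTTAC (3.42%), the GATA motif AGATAA (10.3%) or the SOX motif ACAAAG (16.1%). The other two CXCR4 windows, not printed, each held ACAAAG on the opposite strand. Both strands were searched. The HHEX window was 80.3% G and C, that of CXCR4 66.7%, that of EOMES 61.7% and that of GSC 60.3%.

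Across the 7 loci, knockout cells had the higher value in 38 listed regions and control cells in 26, and the balance changed with the stage. At ESC 1 region was higher in control and 6 in knockout. DE had 8 and 5, GT 3 and 7, PE 13 and 1, and PP 1 and 19. The values come from bulk samples, in which fewer cells with an open region and less opening per cell cannot be told apart. PE was the stage at which the loci leaned most to control and PP the stage at which they leaned most to knockout. The same held over all listed regions, and LHX1 gave 9 of the 19 knockout regions at PP. The control share was 14.3% at ESC, where it was 42.6% over all listed regions. It was 61.5% at DE against 37.2%, 30% at GT against 27%, 92.9% at PE against 56.1% and 5% at PP against 11.3%. The lean at DE depended on the setting. Regions whose values did not overlap numbered 5 in each direction, those of at least 2-fold 2 in each, and within 200 kb the counts were 12 and 14. It was kept within 50 kb (7 and 2), with regions placed by midpoint (8 and 5) and with regions within 1 kb merged (7 and 5). The share over all listed regions differs between chromosomes, and the mean control share of the loci's own chromosomes, weighted by the members on each, was 46.2% at ESC, 39.6% at DE, 20.2% at GT, 59.9% at PE and 10.7% at PP. In the surrounding sequence out to 1000 kb, members left out, it was 39%, 19.7%, 20%, 64.3% and 10.4%. With 7 to 20 regions a stage, these shares are descriptions of the lists. No test was made of the loci against other regions.

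**Figure D1:**
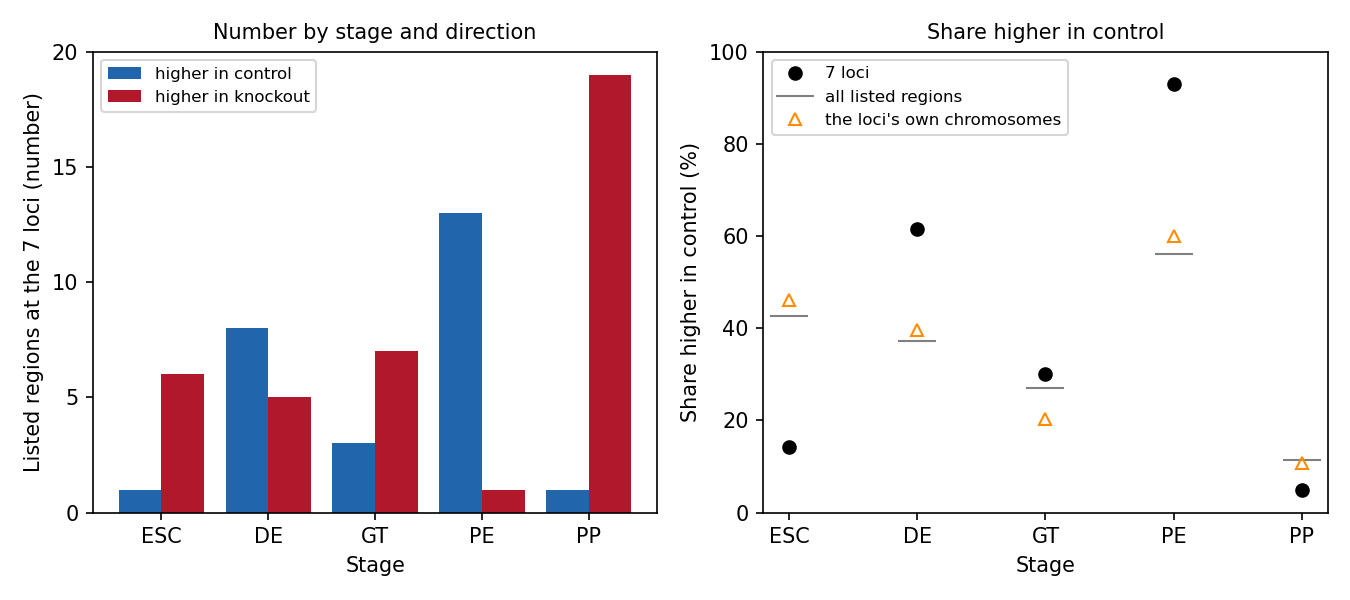
Left, number of listed regions at the 7 loci by stage, higher in control (blue bars) or in knockout (red bars). Right, share of listed regions higher in control (%) at the 7 loci (black points), over all listed regions (grey dashes) and on the loci's own chromosomes (orange triangles); the loci stand at 92.9% at PE and 5% at PP.

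The scaling of the deposited values bears on the PP count. Each value was divided by its column's median over the stage's listed regions. For the shifts and counts below, unlike in the authors' ratio, no 1 was added to the means. The log2 ratios of all listed regions moved by a median of 0.02 at ESC, 0.25 at DE, 0.55 at GT, -0.24 at PE and, most of all, 0.87 at PP. The loci kept their counts in each direction at every stage but PP. There 7 regions were higher in control and 13 in knockout in place of 1 and 19, and the control share over all listed regions went from 11.3% to 39.5%. The column median is itself taken over PP regions of which 11.3% are higher in control. It thus depends on the make-up of the list and cannot show which scaling is right. Levels are therefore compared within a stage only.

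Most differences at the loci were moderate. The authors' log2 ratio of control to knockout, with 1 added to each mean, had a median size of 0.85 over the 64 regions and 0.94 over all listed regions. It reached at least 2-fold in 26 of the 64 (40.6%, against 45.4% over all). The 3 control and 3 knockout values did not overlap in 48 of the 64 regions, or 75%, where 78.5% of all listed regions had values that did not overlap. A two-sided exact permutation test of 3 against 3 values cannot give a p under 0.1, and these 48 regions had that value. Every listed region had been selected by the authors for a difference, so neither figure is a further test of it.

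**Figure D2:**
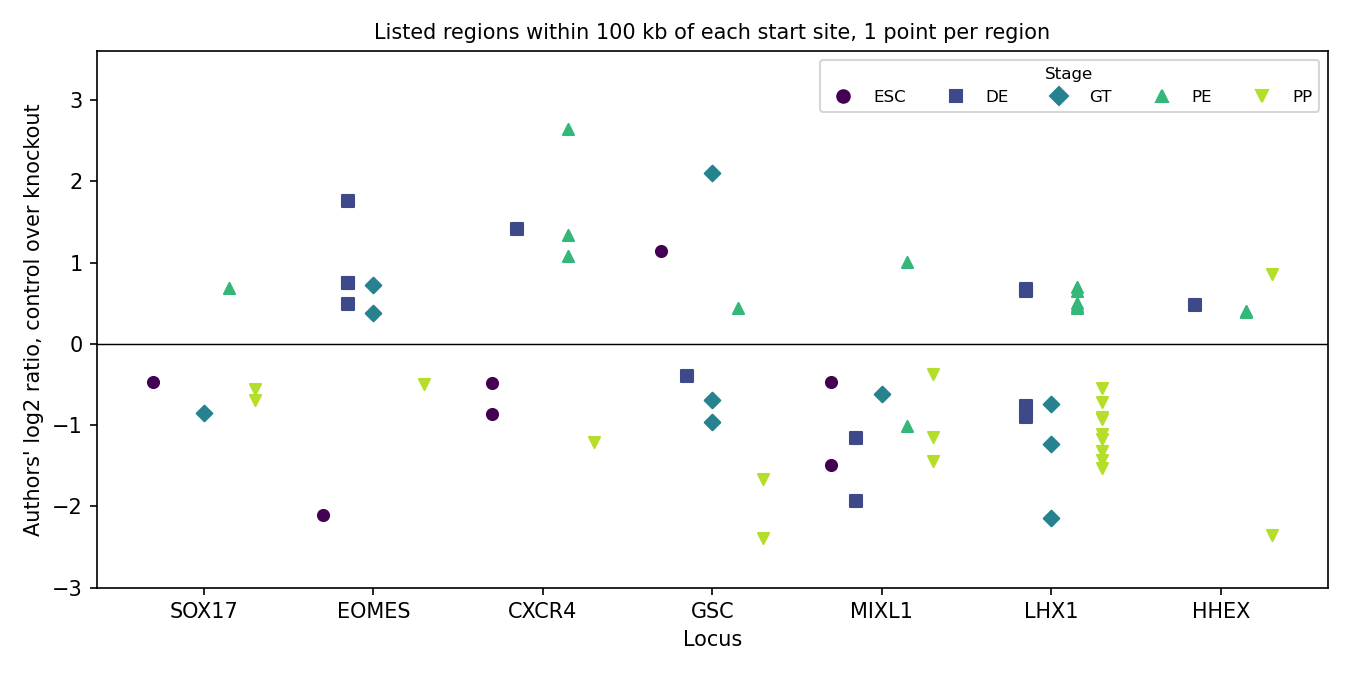
Authors' log2 ratio of control to knockout (vertical axis) for each of the 64 listed regions, by locus, with 1 symbol per stage; points above 0 are higher in control. At LHX1 the 5 PE regions lie above 0 and the 9 PP regions below it.

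The number of loci with a listed region was read against 8278 bins of 200 kb that hold a wild-type cluster region, as each locus does. A region higher in control lay at 1 of 7 loci at ESC (36.1% of bins), 4 at DE (43.7%), 2 at GT (21.5%), 6 at PE (43.4%) and 1 at PP (21.6%). A region higher in knockout lay at 4 of 7 loci at ESC (56.5% of bins), 3 at DE (47.5%), 4 at GT (39.9%), 1 at PE (30.3%) and 7 at PP (70.6%). At PE the locus without a control region was EOMES, and at PP HHEX was the one with a control region.

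**Figure D3:**
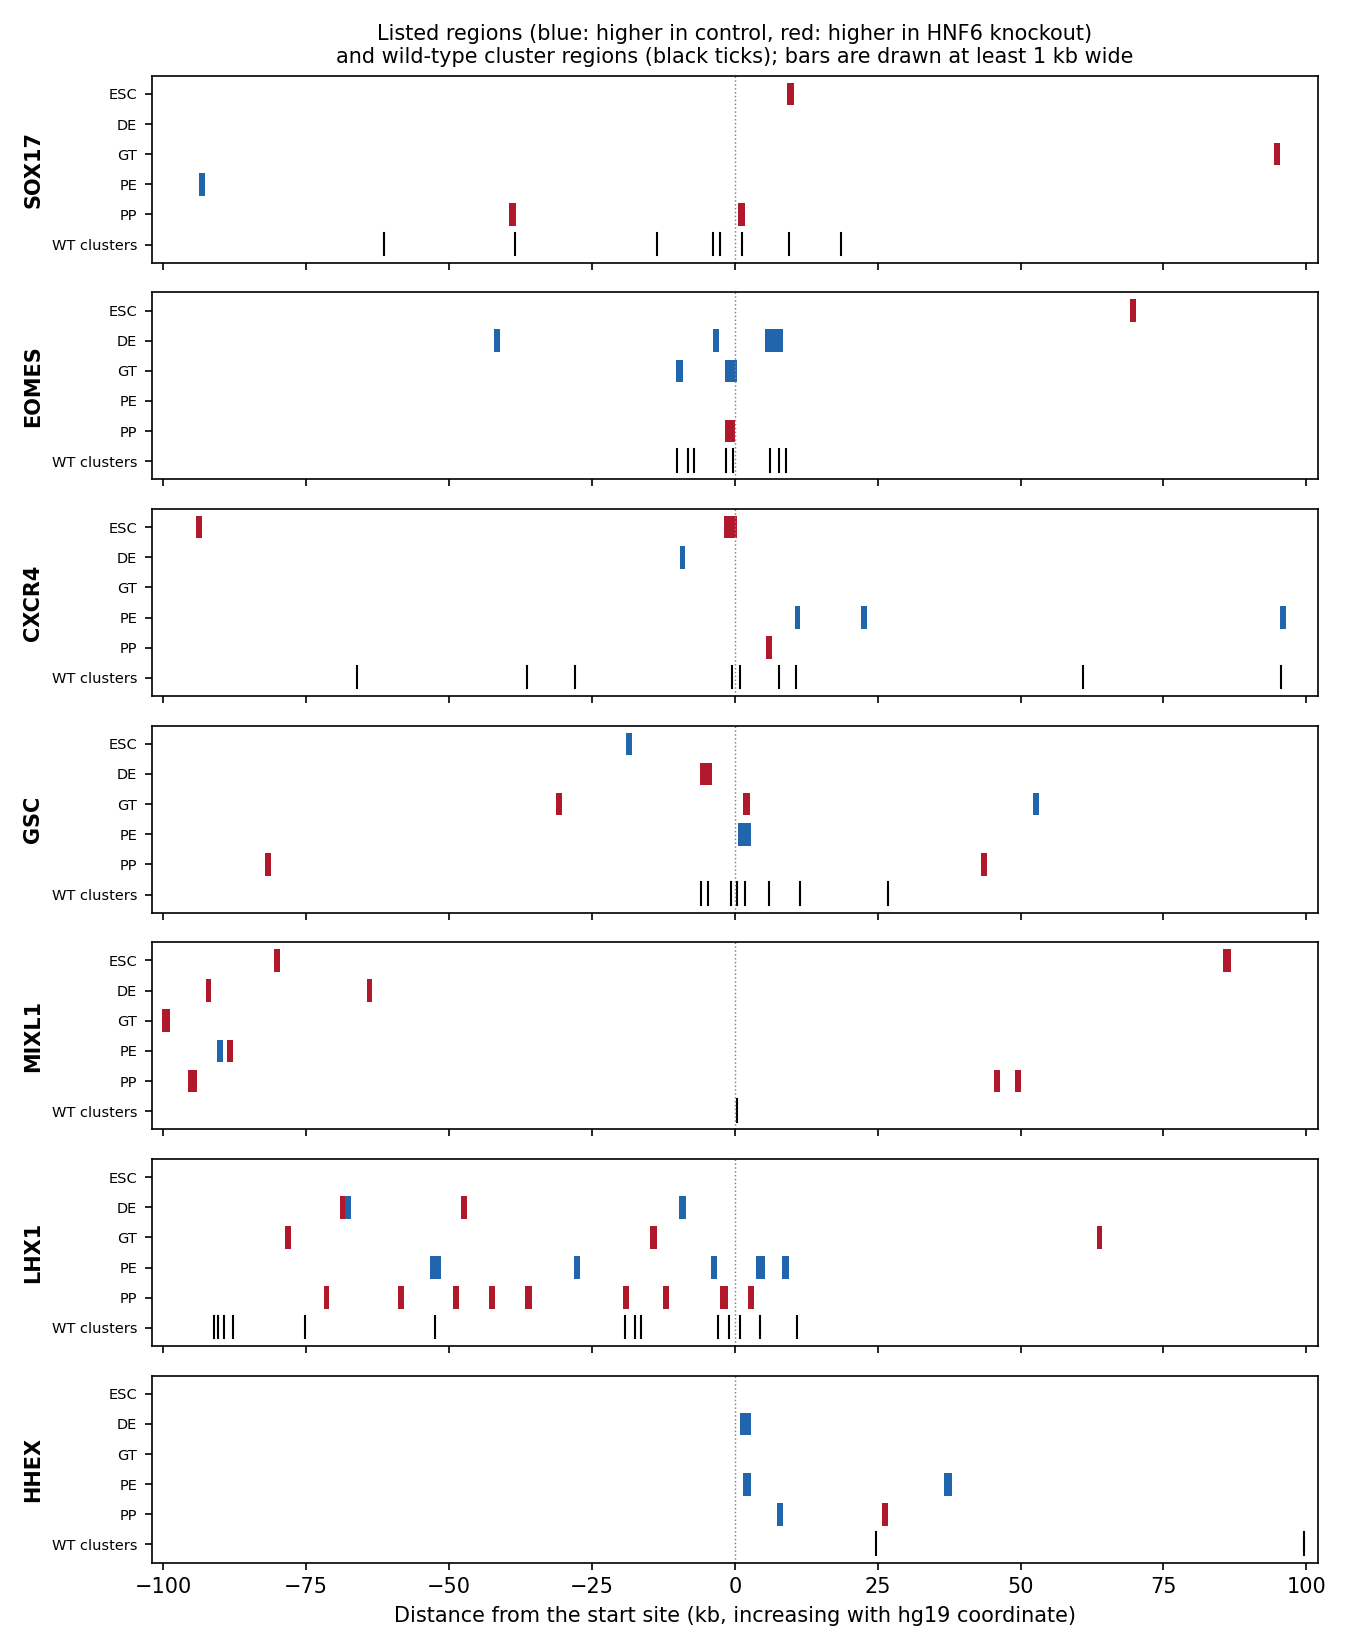
Listed regions by distance from each start site (kb, increasing with the hg19 coordinate), 1 line per stage, higher in control (blue) or in knockout (red), above the wild-type cluster regions (black ticks). Regions of EOMES gather within 11 kb of the start apart from 2, while those of MIXL1 lie 45 kb or more away.

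EOMES was the locus with the most regions higher in control around DE and GT. It had 4 regions higher in control at DE, 2 at GT, 1 higher in knockout at ESC and 1 at PP. On its chromosome 3 the control share of listed regions was 57.9% at DE and 20% at GT. The first of a pair of DE regions on the higher-coordinate side, upstream since EOMES is on the minus strand, was chr3:27769351-27770600, 5.35 kb from the start. Its values were 600, 525 and 611 in control against 415, 354 and 264 in knockout cells. All control values lay above all knockout values, with a log2 ratio of 0.75 and an authors' -log10 p of 11.3. The second, chr3:27770751-27772350, had 731, 573 and 677 in control against 465, 464 and 485 in knockout (log2 ratio 0.49), again without overlap. Both lie over wild-type regions of cluster 9.

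A short DE region 3.50 kb downstream of the start, chr3:27760201-27760500, had 63, 60 and 60 in control against 36, 16 and 0 in knockout (log2 ratio 1.76). The knockout values were low and spread widely, and without the first of them the log2 ratio was 2.78. The remaining DE region, 41.1 kb away on the lower-coordinate side, had overlapping values. At GT, chr3:27753651-27754850, 9.15 kb downstream of the start and over a cluster 9 region, had 350, 362 and 299 in control against 204, 201 and 205 in knockout (log2 ratio 0.73, or 1.28 with column medians).

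The EOMES start site itself was listed at 2 stages, in opposite directions. At GT, chr3:27762251-27764350 had 953, 891 and 852 in control against 779, 618 and 671 in knockout cells (898.7 ± 50.9 against 689 ± 82.1, SD, n = 3), a log2 ratio of 0.38. At PP, chr3:27762351-27764050 had 451, 496 and 374 in control against 568, 545 and 742 in knockout (440 ± 61.7 against 618 ± 108, SD, n = 3), a log2 ratio of -0.49. In neither stage did the groups overlap. When values were divided by the column medians the PP ratio turned, to 0.37, and the GT ratio was 0.93, so that both stages were then higher in control. The stretch, whose gene has the EOMES promoter window printed above, covers 2 wild-type regions of cluster 7. The difference between the stages was not tested. At ESC, a weak distal region 69.2 kb away, chr3:27833151-27833450, had 19, 1 and 21 in control against 57, 42 and 87 in knockout.

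MIXL1 had 10 listed regions, 9 of them higher in knockout, and none lay near the gene. On chromosome 1 the control share of listed regions was 38.4% over all stages, with 65.8% at ESC, 15.8% at DE, 36% at GT, 58.2% at PE and 24.2% at PP. Its nearest region was 45.4 kb from the start. Its 1 wild-type cluster region, chr1:226411112-226411611 of cluster 1, lies beside the start site and overlapped no listed region. The most significant by the authors' p was the PP region chr1:226460001-226460950, 49.0 kb on the higher-coordinate side, with 526, 425 and 395 in knockout against 184, 207 and 217 in control cells (-log10 p 18.9). Each knockout value was above every control value, and the log2 ratio was -1.14, or -0.26 with column medians. At ESC, chr1:226330351-226330950 had 111, 122 and 148 in knockout against 50, 24 and 60 in control (-1.49). At DE, chr1:226318401-226319250 had 223, 196 and 137 against 100, 74 and 73 (-1.16).

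Far from MIXL1, 88.1 kb or more on the lower-coordinate side, regions were listed at DE, GT, PE and PP that did not share any base. At PE 2 regions there, 1150 bp apart, went opposite ways. The control region chr1:226320401-226320950 had 207, 131 and 172 in control against 77, 60 and 116 in knockout (log2 ratio 1.00; chosen for mention after its values were seen). The knockout region chr1:226322101-226322900 had 163, 148 and 236 in knockout against 96, 109 and 65 in control (-1.01). In RefSeq's gene order MIXL1 lies between ACBD3 and LIN9, and whether the distal regions lie within these genes was not examined.

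The member just inside the 100 kb limit was at MIXL1. It was listed at GT, 98.9 kb from the start, with 392, 405 and 346 in knockout against 211, 321 and 214 in control (-0.61, or -0.07 with column medians). Just outside the limit, 107 kb from MIXL1, an ESC region had 167, 113 and 143 in knockout against 12, 115 and 23 in control.

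SOX17 had 5 listed regions and none of them at DE. Of these, 4 were higher in knockout, at ESC, GT and PP. Chromosome 8 as a whole had a control share of 28.3%, being 71.9% at PE, 4.38% at PP, 41.9% at GT and 40.1% at ESC, so the count is near that of the chromosome. The nearest, listed at PP, was chr8:55370501-55371800, 0.501 kb from the start, with 377, 405 and 440 in knockout against 284, 335 and 210 in control cells (407 ± 31.6 against 276 ± 62.9, SD, n = 3). The groups did not overlap, and the log2 ratio was -0.56. A second PP region, chr8:55330451-55331750, had 355, 204 and 323 in knockout against 180, 201 and 164 in control (-0.69), so that the lowest knockout value, 204, was barely above the highest control value, 201. With column medians both PP ratios turned, to 0.29 and 0.19. At ESC, chr8:55379151-55380300 had 657, 746 and 592 in knockout against 489, 418 and 528 in control (-0.47). These 3 regions lie over wild-type regions of clusters 7, 9 and 7. The GT region, 94.3 kb away, had 306, 228 and 214 in knockout against 146, 127 and 141 in control (-0.85, or -0.31 with column medians). The 1 region higher in control, at PE and 93.2 kb away, had 152, 326 and 344 in control against 158, 125 and 224 in knockout, with overlap (0.69, or 0.44 with column medians).

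At GSC, 5 regions were higher in knockout and 3 in control, and the region by its start site was listed in opposite directions at GT and PE. At GT, chr14:95237401-95238700 had 312, 238 and 391 in knockout against 208, 206 and 170 in control (314 ± 76.5 against 195 ± 21.4, SD, n = 3), a log2 ratio of -0.69. At PE the wider region chr14:95236551-95238800, which contains it, had 918, 802 and 963 in control against 737, 609 and 634 in knockout (894 ± 83.1 against 660.0 ± 67.8, SD, n = 3), a log2 ratio of 0.44. The groups did not overlap at either stage. With column medians the ratios kept their signs but were smaller, -0.11 at GT and 0.20 at PE. The PE region starts 0.551 kb from the GSC start site on the upstream side (GSC is on the minus strand, and its promoter window is printed above). The PE and GT regions both cover a wild-type region of cluster 6. Of the cluster 1 region chr14:95236125-95236624, the PE region reaches only the last bases. On chromosome 14 the control share of listed regions was 21.7% at GT and 81.3% at PE. It was 33% at ESC, 18.1% at DE, 12.8% at PP and 30.6% over all stages. The difference between the stages was not tested.

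At DE the GSC region was higher in knockout. On the downstream side, chr14:95229951-95231950 had 1435, 1114 and 1143 in knockout against 892, 862 and 1051 in control (-0.40, or -0.14 with column medians), over 2 regions of cluster 9. Other GSC regions were more unequal and had low values. At PP, chr14:95153751-95154150 had 49, 98 and 81 in knockout against 6, 24 and 11 in control (-2.39). At GT, chr14:95288251-95288600 had 50, 95 and 93 in control against 16, 13 and 24 in knockout (2.11). Another PP region, chr14:95279151-95279450, had 61, 75 and 63 in knockout against 34, 23 and 4 in control (-1.66; chosen for mention after its values were seen). At ESC, chr14:95217001-95217550 had 187, 107 and 110 in control against 60, 82 and 39 in knockout (1.15), and this was the 1 region higher in control at that stage among all loci.

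**Figure D4:**
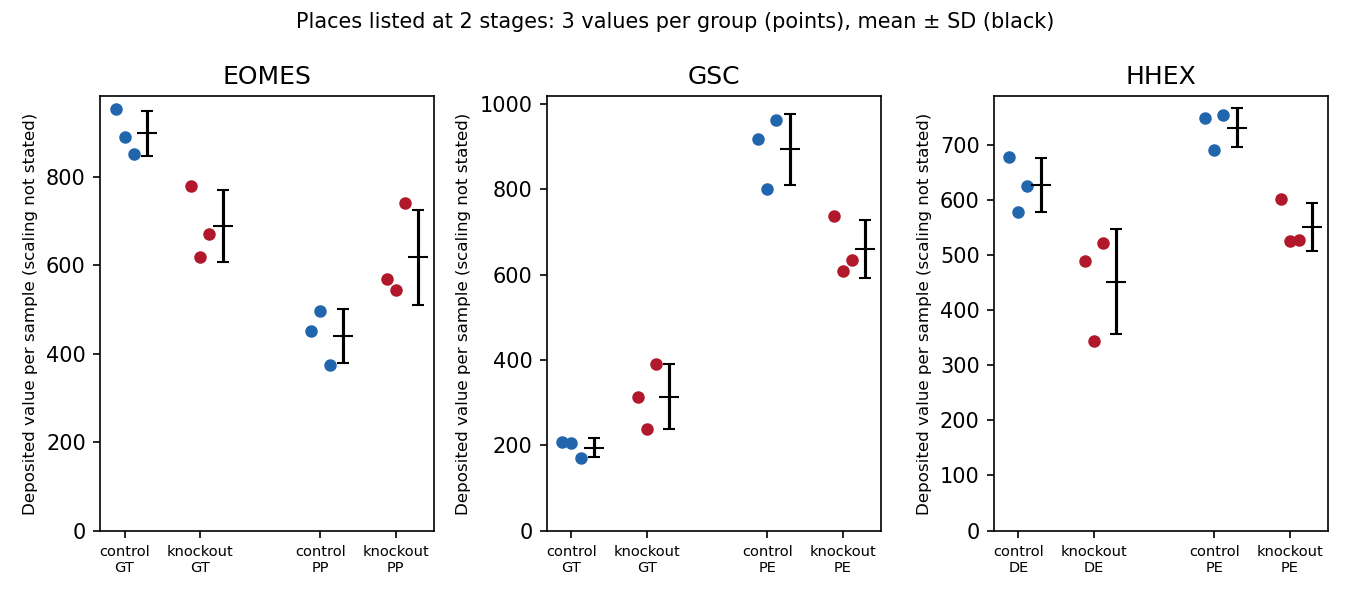
Deposited values (vertical axis, scaling not stated) in the 3 control samples (blue) and 3 knockout samples (red) at the places listed at 2 stages, with mean ± SD in black. Control is above knockout at GT and below it at PP for EOMES, below at GT and above at PE for GSC, and above at DE and PE for HHEX.

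LHX1 held 21 of the 64 listed regions. Its 5 PE regions were all higher in control and its 9 PP regions all higher in knockout, with 2 in each direction at DE, 3 higher in knockout at GT and none at ESC. On chromosome 17 the control share was 61.9% at PE, 9.08% at PP and 6.17% at GT. The PE and PP regions shared no base, so they were different places of the locus. Regions with values that did not overlap numbered 3 of 5 at PE and 7 of 9 at PP. Over all listed regions that share was 77.5% at PE and 79.8% at PP.

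At PP, chr17:35258301-35259550, 35.5 kb from the LHX1 start on the lower-coordinate side, had 450, 436 and 599 in knockout against 210, 230 and 248 in control cells (495 ± 90.3 against 229 ± 19.0, SD, n = 3). Its log2 ratio was -1.11, or -0.25 with column medians, with an authors' -log10 p of 19.8, and it covered no wild-type cluster region. Near the start, chr17:35292351-35293750 had 532, 645 and 463 in knockout against 365, 417 and 339 in control (-0.55). On the other side, chr17:35297301-35298150 had 233, 234 and 142 in knockout against 127, 110 and 83 in control (-0.92). With column medians the ratio of the former turned, to 0.31, and that of the latter was -0.05. The PP region over a cluster 4 region, chr17:35275401-35276150, had 249, 307 and 241 in knockout against 80, 207 and 196 in control (-0.72), or -0.40 without the first control value. With column medians it turned, to 0.13. The other 5 PP regions of LHX1 had log2 ratios from -0.90 to -1.52, and values overlapped in 2 of them.

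At PE the widest LHX1 region, chr17:35241601-35243550 over a region of cluster 2, had 983, 1133 and 1427 in control against 823, 877 and 898 in knockout (0.45), or 0.29 without the third control value. On the other side of the start and 3.65 kb from it, chr17:35298651-35300350 had 516, 539 and 662 in control against 453, 281 and 508 in knockout (0.47), or 0.25 without the second knockout value. On the lower-coordinate side, chr17:35290801-35291850 had 412, 636 and 697 in control against 505, 365 and 356 in knockout (0.51), so the groups overlapped. With column medians these 3 ratios were 0.19, 0.23 and 0.26. At the start-proximal PE regions the margin between the groups was small or absent.

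The GT region chr17:35280101-35281400 had 266, 182 and 470 in knockout against 96, 148 and 146 in control (-1.23, -log10 p 13.0). The groups did not overlap, but the knockout values spread widely, and without the highest of them, the third, the log2 ratio was -0.78. With column medians it was -0.64. At DE, 2 abutting LHX1 regions had opposite directions. The left one, chr17:35225851-35226800, had 250, 158 and 169 in knockout against 51, 105 and 152 in control (-0.90), or -0.58 without the first control value. The right one, chr17:35226801-35227900, had 237, 374 and 325 in control against 155, 137 and 291 in knockout, with overlap (chosen for mention after its values were seen).

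HHEX was the locus with the largest part of its regions higher in control, 4 of 5, on chromosome 10, where the control share was 54.9% at DE, 55.9% at PE and 4.62% at PP. The stretch next to its start was listed at DE and at PE in the same direction. At DE, chr10:94450851-94452900 had 678, 579 and 625 in control against 489, 344 and 522 in knockout cells (627 ± 49.5 against 452 ± 94.7, SD, n = 3), a log2 ratio of 0.47, or 0.31 without the second knockout value. At PE, chr10:94451401-94452850 had 749, 690 and 754 in control against 602, 526 and 527 in knockout (731 ± 35.6 against 552 ± 43.6, SD, n = 3), a log2 ratio of 0.41. The groups did not overlap at either stage. With column medians the ratios were 0.72 at DE and 0.17 at PE. HHEX is on the plus strand, so this stretch is downstream of the start whose promoter window is printed above, and no wild-type cluster region lies there.

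At PP the HHEX region chr10:94457351-94458050 had 306, 353 and 270 in control against 186, 167 and 159 in knockout (310 ± 41.6 against 171 ± 13.9, SD, n = 3), a log2 ratio of 0.86. This was the 1 region of the 20 at PP that was higher in control, and with column medians it was 1.72. A weak PP region at 25.8 kb went the other way, with 36, 16 and 62 in knockout against 8, 12 and 0 in control (chosen for mention after its values were seen). The PE region 36.7 kb away, with 671, 872 and 1070 in control against 751, 675 and 562 in knockout, had overlapping values and a log2 ratio of 0.39, or 0.22 without the third control value and 0.14 with column medians.

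CXCR4 had 3 regions higher in control at PE and 1 at DE, and 2 higher in knockout at ESC and 1 at PP. On chromosome 2 the control share was 34.2% at ESC, 63.5% at DE, 49% at PE and 9.68% at PP. The PE region chr2:136886451-136887150 had the smallest authors' p of all 64. It lies 10.5 kb upstream of the start, CXCR4 being on the minus strand, over a wild-type region of cluster 8. Its values were 374, 357 and 570 in control against 190, 183 and 140 in knockout cells (434 ± 118 against 171 ± 27.1, SD, n = 3). The lowest control value was 357 and the highest knockout value 190, with a log2 ratio of 1.34 and a -log10 p of 23.6.

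Farther upstream at PE, chr2:136898101-136898350 had 71, 59 and 48 in control against 8, 13 and 5 in knockout, the largest ratio at the loci (2.64; chosen for mention after its values were seen). The remaining PE region, chr2:136971401-136972000 over a region of cluster 9, had 135, 196 and 120 in control against 72, 94 and 45 in knockout (1.09). At DE, chr2:136866351-136866900, on the downstream side, had 78, 134 and 98 in control against 41, 24 and 49 in knockout (1.42). All control values of these regions were above all knockout values.

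The CXCR4 start site was listed at ESC, before differentiation. There chr2:136874101-136876350 had 917, 1072 and 1325 in knockout against 762, 818 and 786 in control cells (1105 ± 206 against 789 ± 28.1, SD, n = 3), a log2 ratio of -0.49 without overlap and a -log10 p of 10.3. It covers a wild-type region of cluster 4 and the start site, whose promoter window is printed above. At PP, chr2:136881501-136882300, 5.50 kb upstream, had 137, 179 and 236 in knockout against 76, 74 and 87 in control (-1.21, or -0.37 with column medians).

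Among wild-type cluster regions at the loci the largest share came from cluster 9, which held 19 of the 50 (38%) and 20.5% of all cluster regions. Cluster 9 regions lay at EOMES (6), SOX17 (4), CXCR4 (4), GSC (4) and HHEX (1) and none lay at LHX1 or MIXL1. LHX1 had 14 cluster regions, 5 of them from cluster 2 and 3 from cluster 6. Cluster 2 held 8 of the 50 (16%, 11.4% of all), cluster 7 held 7 (14%, 13.4% of all) and cluster 6 held 5 (10%, 7.27% of all). Clusters 1, 4 and 8 had 3 each, cluster 3 had 2 and cluster 5 had none. The labels do not say what course of accessibility each cluster follows.

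**Figure D5:**
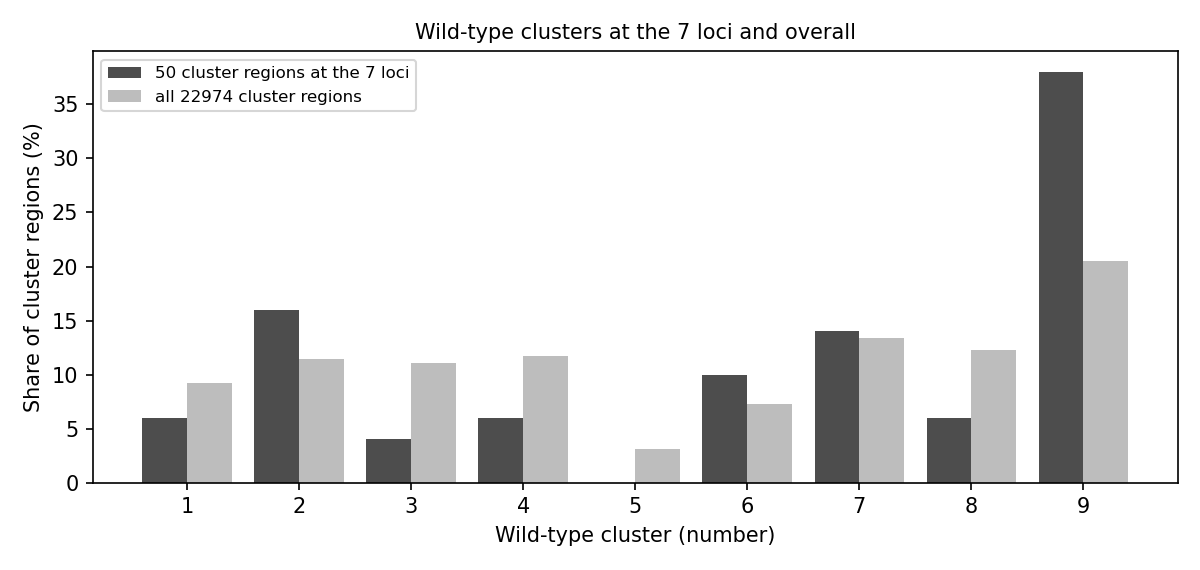
Share (%) of wild-type cluster regions in each of the 9 clusters, for the 50 at the 7 loci (dark bars) and all 22974 (light bars). Cluster 9 takes 38% at the loci and 20.5% overall.

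Of the 50 cluster regions, 20 (40%) shared at least 1 bp with a list, against 38.4% of all cluster regions. By locus they were 5 of 8 at EOMES, 4 of 8 at GSC, 3 of 8 at SOX17, 3 of 9 at CXCR4, 5 of 14 at LHX1, and none of 1 at MIXL1 or of 2 at HHEX. The control lists met 0 at ESC (5.38% of all cluster regions), 2 at DE (4.99%), 3 at GT (2.49%), 7 at PE (6.44%) and 0 at PP (2.47%). All 5 at DE and GT were at EOMES, and the 7 at PE were at CXCR4, GSC and LHX1. The knockout lists met 2 at ESC (3.73%), 2 at DE (5.69%), 1 at GT (1.86%), 0 at PE (3.97%) and 6 at PP (11.1%). Those at PP were at SOX17, EOMES and LHX1, and the 2 at DE were at GSC. Some shared only an edge: when at least 50% of the cluster region had to be shared, 5 of the 7 at PE and 5 of the 6 at PP remained.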

How the data were processed

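ATAC-seq region lists of 30 HUES8 samples, 3 per genotype and stage, were used as deposited. Per the submitters' processing notes Bowtie2, MACS2 and hg19 were used, with no versions, roles or order. The sources used here name no differential caller, transposase shift or scaling. Columns carry no names. Per the labels each list holds the regions of 1 genotype at 1 stage. The authors deposited a log2 ratio, which was recomputed in all 89929 regions as control mean over knockout mean with 1 added to each, the first 3 values being read as knockout and the second 3 as control from the list names and the ratio's sign. A decimal deposited beside the 6 values, at least 5, was read as the authors' -log10 p. These scores and ratios are the authors' own.

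Clusters are numbered as their lists are named, and a second number inside the lists differs and was not used. Start sites came from the rule for the loci. The members and lists were chosen with earlier results of these data known. Counts, overlaps (at least 1 bp) and exact permutation tests were made with Python 3.11.15, pandas 2.3.3, numpy 2.4.6 and scipy 1.17.1, and the window and overlap code was tested on simulated data. Regions given with values follow a fixed rule: the region with the highest -log10 p per locus and stage, those within 5 kb of a start site, those listed at 2 or more stages and those over a cluster region (41 of 64); others are marked in the text. Promoter windows and gene order are from RefSeq (GRCh38.p14). Other genes of the endoderm network were not analysed here, since their hg19 start sites were not in the tables used. Alternatives covered window, thresholds, overlap, pseudocount, scaling and left-out values. The shares by chromosome, within 1000 kb and over bins of 200 kb are backgrounds added after seeing the data.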

Additional observations from a re-analysis of the deposited data

Results flagged for a closer look

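Stretches at 2 start sites had genotype differences of opposite direction at different stages, with the 3 values of each group fully separated at both. Opposite direction and full separation were the rule by which they were flagged, so neither adds support. Of all listed regions, 78.5% had values that did not overlap. At EOMES the log2 ratio of control to knockout was 0.38 at GT and -0.49 at PP, a difference of 0.87. At GSC it was -0.69 at GT and 0.44 at PE, a difference of -1.12. With values divided by column medians the EOMES ratios were 0.93 and 0.37, both higher in control, and those of GSC were -0.11 and 0.20. Those medians are taken over the listed regions alone, most of which were higher in knockout at GT and PP. The division moved the log2 ratios of all listed regions by a median of 0.55 at GT and 0.87 at PP. It therefore cannot show which scaling is right. Neither difference between stages was tested, and the regions had been selected for a difference at each stage. The lists as a whole went from 27% higher in control at GT to 56.1% at PE and 11.3% at PP. The part of that shift in these places was not tested.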

How the results depend on the processing

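Counts of listed regions at the loci, in the order ESC, DE, GT, PE and PP, were 1, 8, 3, 13 and 1 for control, with 6, 5, 7, 1 and 19 for knockout. They were 1, 7, 2, 9 and 1 and 2, 2, 3, 0 and 15 within 50 kb, and 4, 12, 5, 21 and 4 and 12, 14, 13, 5 and 32 within 200 kb. The lean to control at DE thus turned at 200 kb. An authors' -log10 p of at least 10 left 0, 1, 0, 1 and 0 and 1, 0, 1, 0 and 2. At least 2-fold left 1, 2, 1, 4 and 0 and 2, 2, 2, 1 and 11. Values without overlap left 1, 5, 3, 9 and 1 and 4, 5, 4, 1 and 15. Placing regions by midpoint, or merging within 1 kb, kept each count within 1.5 times. Cluster regions met by the lists, 0, 2, 3, 7 and 0 in control and 2, 2, 1, 0 and 6 in knockout, became 0, 1, 0, 1 and 0 and 1, 0, 0, 0 and 0 at a -log10 p of at least 10, and 0, 2, 3, 9 and 2 and 2, 3, 2, 1 and 8 within 200 kb. Both stricter definitions of overlap and the 50 kb window kept them within 1.5 times. The 3 places listed at 2 stages stayed 3 when 50% of the shorter region had to be shared and became 0 at a -log10 p of at least 10.

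For 41 regions, moves of the log2 ratio were set against the combined SD of both groups' log2 values. None changed sign or moved by more with a pseudocount of 0.5 or 10, with medians, or without any 1 value. This was nearly fixed in advance: leaving out 1 of 3 values hardly can exceed that spread, and a pseudocount cannot change a sign. Single ratios still moved much without 1 value, from 1.76 to 2.78 at the EOMES DE region 3.50 kb from the start. The LHX1 PE region 3.65 kb from the start went from 0.47 to 0.25. With column medians 13 moved by more than that spread and 5 turned, all at PP: SOX17 to 0.19 and 0.29, EOMES to 0.37, and LHX1 to 0.13 and 0.31. No paired analysis was possible because the deposited columns carry no replicate numbers. The depth of each sample is unknown, so no counting error could be given.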
